A study of Mus musculus with 2 samples.

Results

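Camk1d-high cells of low mitochondrial share are single induced macrophages in which the kinase transcript Camk1d made up an unusually large part of the counts while transcripts of the mitochondrial genome made up very little. They were chosen by measured values. A barcode was a member if it had at least 500 genes, at least 5000 counts, Camk1d at 1200 CPM or more (CPM being counts scaled to a total of 1000000) and at most 0.5% of counts in genes with the prefix mt-. The rule found 359 cells among 6837 barcodes, or 6.88% (exact binomial 95% interval 6.21 to 7.60%) of the 5218 barcodes that passed the limits on genes and counts. They are set against 4075 Camk1d-low cells, which passed the same limits on genes and counts, had at most 15% mitochondrial counts and had Camk1d under 600 CPM. Camk1d and the mt- genes chose the cells, so their levels are a description and support nothing.

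The study profiled induced macrophages (iMac) of the mouse, which its title describes as fibroblasts reprogrammed with c-Myc alone. All cells were wild type, were lifted with EDTA in PBS and were processed on the DNBelab C4 droplet system. The samples are a cDNA library and an oligo library, and barcode names in the deposited matrix carry neither, so the matrix counted as 1 sample of 1 group with no replicate. The promoter or vector that brought in c-Myc, the age of the source fibroblasts and whether they were pooled are not stated in the labels. No p-value can be given with 1 sample, and all intervals cover counting error only. A gene was counted as higher or lower when the ratio of its CPM in summed counts passed 1.5-fold, among genes at 10 CPM or more in either group.

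Camk1d encodes calcium/calmodulin-dependent protein kinase ID. Calmodulin binds calcium when its cytosolic level rises, and then activates this kinase, which is further switched on by the upstream kinase CaMKK. Targets of the wider kinase family include CREB, class IIa histone deacetylases and MEF2-dependent transcription. Macrophages are phagocytes that respire through mitochondria, whose own genome encodes a small set of respiratory chain subunits and its ribosomal RNAs. Nuclear genes encode all the other mitochondrial proteins.

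Among the members Camk1d ran from 1202 to 28009 CPM per cell, with a median of 2270 CPM. In the summed counts it stood at 3016 CPM (95% Poisson interval 2973 to 3060) in the members and at 278 CPM in Camk1d-low cells. Their mitochondrial share ran from 0.0157% to 0.494% with a median of 0.191%, against a median of 0.678% in Camk1d-low cells. Of the 455 cells with high Camk1d and up to 15% mitochondrial counts, 78.9% had a share of at most 0.5%. Of the Camk1d-low cells, 36.5% did.

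The members were shallower than the cells they are compared with, and more of their counts came from 1 locus of ribosomal RNA. Their median was 14006 counts and 2883 genes, against 25768 counts and 3989 genes in Camk1d-low cells. The noncoding transcripts Gm42418 and AY036118 lie over each other on chromosome 17, and their counts are widely read as ribosomal RNA. Together they took a median of 16% of a member's counts, from 2.0% to 57.8%, and 5.07% in Camk1d-low cells. Cytosolic ribosomal protein genes (symbols Rpl and Rps) took a median of 27.6% of counts in the members and 33.4% in Camk1d-low cells. Barcode names end in a number whose meaning is not given in the sources used here, and its mean was 2.62 in the members and 2.20 in Camk1d-low cells. No barcode name occurred more than once. The part of depth and of ribosomal RNA in the differences below was not tested, and comparisons at equal depth and at equal Gm42418 share are given for some of them.

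**Figure D1:**
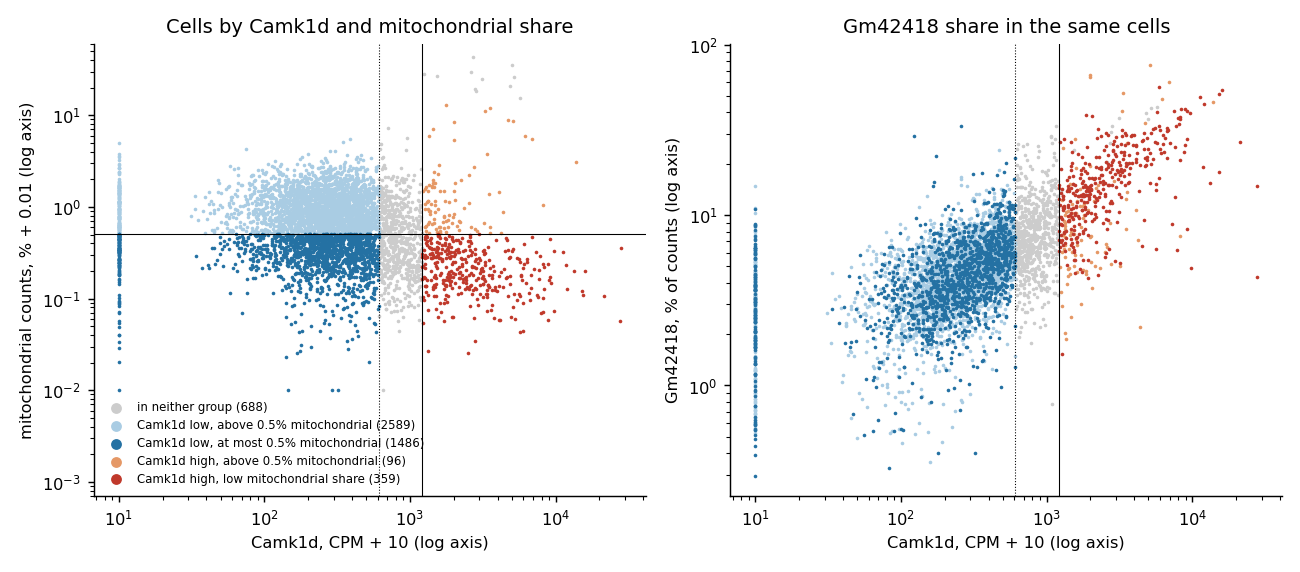
Each point is 1 cell. The left panel plots the mitochondrial share of counts (plus 0.01, log axis) against Camk1d (CPM plus 10, log axis), and the right panel plots the share of counts in Gm42418 (log axis) against the same Camk1d values. Solid lines mark 1200 CPM and 0.5%, and the dotted line marks 600 CPM, so that the 359 members (red) fill the lower right corner by construction. Most members lie above the bulk of the Camk1d-low cells in Gm42418 share, with a few at or below 5%.

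The cells carried the markers of macrophages. Each of the 20 macrophage genes listed was at 10 CPM or more in at least 1 of the groups, and together they summed to 12146 CPM in the members and 14721 CPM in Camk1d-low cells. Tyrobp, the signalling adaptor of myeloid receptors, was counted in every member, with a lowest value of 765 CPM, a median of 4097 CPM and a highest of 12564 CPM. The leukocyte phosphatase gene Ptprc was at 55.3 CPM in the members and 47.5 CPM in Camk1d-low cells. No gene of the dendritic cell, mast cell, T and NK cell or endothelial and epithelial lists reached 10 CPM in either group. Those lists summed to 9.74, 0, 2.76 and 5.84 CPM in the members. Of the fibroblast list only Vim and S100a4 reached it, genes that macrophages express as well. With them the list summed to 2550 CPM in the members and 3065 CPM in Camk1d-low cells, and 4 of its 10 genes with a row had no count in the members. The B cell list summed to 91.0 CPM in the members and 71.9 CPM in Camk1d-low cells, nearly all of it from Ighm at 87.6 and 66.1 CPM.

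A small set of transcripts was several times higher in the members than in Camk1d-low cells. Over all 6912 genes tested, 278 (4.02%) were at least 1.5-fold higher and 868 (12.6%) at least 1.5-fold lower, with a median log2 ratio of -0.09. The leading genes were Gm48099, Tmtc2, Gphn, D130009I18Rik, Jarid2 and Gm19951, all more than 4-fold higher. They encode unrelated things. Gphn encodes gephyrin, a scaffold of inhibitory synapses that also makes molybdenum cofactor. Jarid2 encodes a partner of the Polycomb repressive complex 2, and Tmtc2 a membrane protein of the endoplasmic reticulum. D130009I18Rik, Gm48099 and Gm19951 are annotated as long noncoding RNAs.

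In single cells Gphn ran from 0 to 12392 CPM among the members, with a median of 1588 CPM, against a median of 243 CPM in Camk1d-low cells. The distributions overlapped at the edges, and 319 of 359 members (88.9%, exact interval 85.1 to 91.9%) lay above the 95th percentile of Camk1d-low cells. In summed counts Gphn was at 1689 CPM (1657 to 1722) in the members and 276 CPM (273 to 279) in Camk1d-low cells, a log2 ratio of 2.61. Jarid2 had a median of 2143 CPM and a highest value of 34770 CPM in the members, against a median of 305 CPM in Camk1d-low cells. Its summed levels were 2589 and 437 CPM (log2 ratio 2.57), and 75.2% of members lay above the 95th percentile. Tmtc2 followed closely, with summed levels of 1566 and 256 CPM (log2 ratio 2.61) and 73.5% of members above that percentile. So for each of these genes most members, but not all, were beyond nearly all Camk1d-low cells.

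The noncoding transcripts were at lower levels and behaved alike. D130009I18Rik was at 821 CPM in the members and 136 CPM in Camk1d-low cells, and Gm19951 at 325 and 68.7 CPM. Gm48099 was at 42.0 and 5.29 CPM, with no count in 56.8% of members. Its log2 ratio of 2.77 was the largest of all genes at 20 CPM or more apart from Camk1d, on 259 counts in the members.

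Further transcripts were higher by smaller factors. Lars2, which encodes the leucyl-tRNA synthetase of mitochondria, was at 1417 CPM (1387 to 1447) in the members and 418 CPM in Camk1d-low cells, and had a count in every member. Cmss1, named for a ribosomal small subunit homolog of yeast, was at 7596 and 2310 CPM. Gm42418 itself was at 152502 CPM in the members and 47470 CPM in Camk1d-low cells (log2 ratio 1.68), with 84.1% of members above the 95th percentile. AY036118 differed less, at 10979 and 7055 CPM (log2 ratio 0.64). Filip1l (462 and 146 CPM), the RNA-binding zinc-finger gene Zc3h7a (1478 and 591 CPM) and Cdk8, a kinase of the Mediator complex (1258 and 566 CPM), completed the abundant group. Sspn, which encodes sarcospan of the dystrophin complex, was at 27.8 CPM in the members and 6.79 CPM in Camk1d-low cells. Il31ra, a subunit of the interleukin-31 receptor, was at 28.7 and 9.64 CPM. Sspn had no count in 66.0% and Il31ra in 65.2% of members. Like Gm48099 and Egr1 (given below), they reached 20 CPM only in the members, so that limit itself favoured higher ratios for them.

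These transcripts were high in the same cells. Gphn, Jarid2, Tmtc2, D130009I18Rik, Gm19951, Lars2 and Cmss1 were picked after their values had been seen, and the number of the 7 above the 95th percentile of Camk1d-low cells was counted in each cell. At least 4 of the 7 were above it in 285 of 359 members (79.4%) and in 70 of 4075 Camk1d-low cells (1.72%). All 7 were above it in 145 members (40.4%) and in 1 Camk1d-low cell. At the other end, 20.1% of Camk1d-low cells had at least 1 of them above it, as against 94.4% of members.

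The members were not set apart by a gap, and the same transcripts climbed with Camk1d on both sides of the 1200 CPM limit. Cells of at most 0.5% mitochondrial counts were put into 7 bins of Camk1d. From the lowest bin, under 150 CPM (395 cells), to the highest, 4800 CPM or more (63 cells), Gphn went from 181 to 3432 CPM. Gm42418 went from 31614 to 229850 CPM, and each bin between them was higher than the one before for both genes. Between the limits of 600 and 1200 CPM, Gphn stood at 592 CPM and Gm42418 at 80177 CPM, above the Camk1d-low cells and below the members. Actb, a cytoskeletal gene, was nearly level, at 6254 CPM in the lowest bin and 6647 CPM in the highest. Sumo2 fell from 325 to 92.9 CPM over the same bins, and Tyrobp from 6023 to 3866 CPM, with most of the difference in Tyrobp above 1200 CPM. Median depth was 16407 counts in the lowest bin, 24759 in the second and 9396 in the highest.

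**Figure D2:**
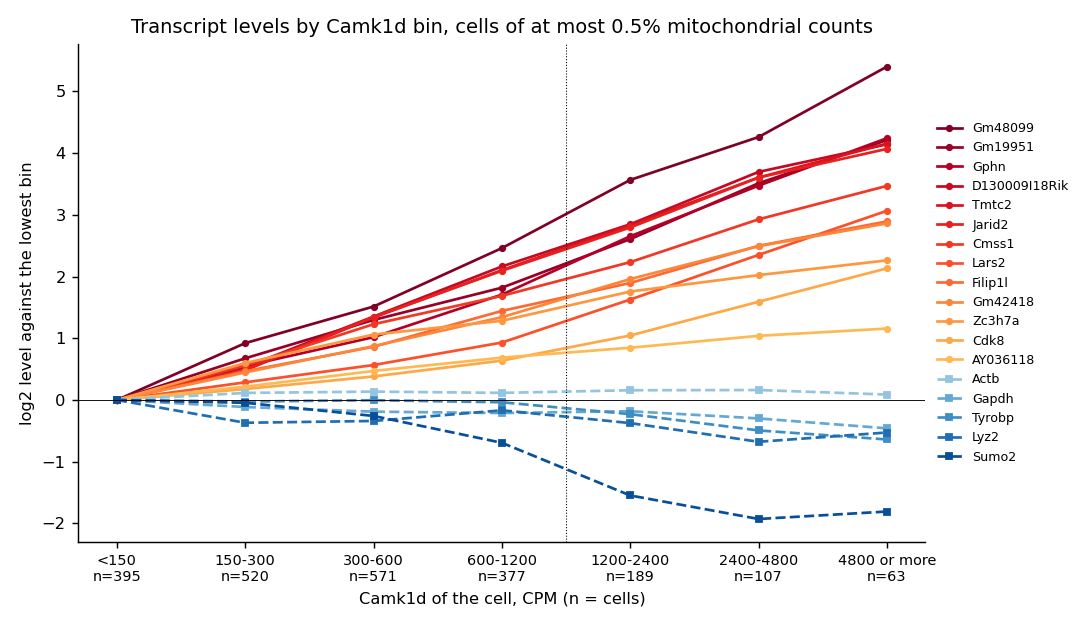
Log2 of the summed level relative to the lowest bin, for cells of at most 0.5% mitochondrial counts in 7 bins of Camk1d (CPM per cell), with the number of cells under each bin. Solid lines are transcripts that climb with Camk1d, dashed lines are other genes, and the dotted line marks the 1200 CPM limit of the rule. Gphn reached 3432 CPM in the highest bin, from 181 CPM in the lowest, while Actb stayed between 6254 and 6995 CPM.

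Over all 5207 cells of at most 15% mitochondrial counts, the genes whose level per cell was most like that of Camk1d were mostly the same ones. Spearman's rho with Camk1d was 0.65 for Gm42418, 0.63 for Cmss1, 0.58 for Gphn, 0.57 for Jarid2, 0.54 for AY036118 and 0.53 for Tmtc2. Lars2, D130009I18Rik, Zc3h7a, Cdk8, Filip1l and Gm19951 followed, from 0.52 down to 0.44. The next gene after these 12 was Pabpc1 at 0.27, so there was a clear drop in the order. Gm48099 (0.25), Sspn (0.19), Il31ra (0.17) and Egr1 (0.08), which had no count in most members, came after it. Within the 359 members alone, rho with Camk1d was 0.66 for Cmss1, 0.64 for Gphn, 0.63 for Lars2, 0.60 for Gm42418 and 0.53 for Cdk8. It was -0.59 for the share of ribosomal protein genes and -0.38 for Tyrobp. These cells share 1 library and their depth differs, with rho of -0.25 between counts and Camk1d among the members, so the correlations are descriptions.

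Several of the genes are very long, others are short and some overlap one another, which bears on what a count per gene stands for. Positions are from GENCODE M21 on GRCm38, the assembly also named mm10. Camk1d lies on the minus strand of chromosome 2 from 5293457 to 5714515, and its longest transcript covers 1.65% of that span. Gphn (chromosome 12, 78226379 to 78684772), Jarid2 (chromosome 13, 44729474 to 44921643) and Tmtc2 (chromosome 10, 105187663 to 105574451) are protein-coding genes of the same kind, whose longest transcripts cover 0.779%, 4.35% and 1.46% of their spans. Lars2 lies on chromosome 9 from 123366927 to 123462666. Of the leading noncoding transcripts, D130009I18Rik spans 353993 bases, but Gm48099 spans 11549 and Gm19951 4129. Pde4d, which was lower in the members, spans 1503514 bases. Whether counts came from exons or introns is not given in the sources used here. Cmss1 and Filip1l lie on opposite strands of chromosome 16 and share 220034 bases, the whole of Filip1l. AY036118 lies wholly within Gm42418 on the opposite strand, over 923 bases from 39847113 to 39848035 of chromosome 17. Strand in counting is not stated, so it is not known how reads from the shared bases of each pair were assigned. Some counts of 1 gene of a pair may belong to the other.

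The counts of genes past 1.5-fold differed between the classes made by the limits on Camk1d and on the mitochondrial share. What each limit contributed was not tested. Between the Camk1d-high classes 407 genes were higher and 1315 lower in the members, as given below. Cells low in Camk1d differed little with their mitochondrial share. Between the 1486 of at most 0.5% and the 2589 above it, 10 genes (0.148%) were higher and 22 (0.325%) lower, and Gphn was at 291 and 269 CPM. Among cells above 0.5%, the 96 with high Camk1d had 277 genes higher (3.95%) and 44 lower (0.627%) than the Camk1d-low ones. Of the 278 genes higher in the members, 25 (8.99% of them, and 9.03% of the 277) were also higher there. Of the 868 lower, 11 (1.27% of them, and 25% of the 44) were also lower there. The comparisons draw on different cells, the members being the low-mitochondrial and the 96 the high-mitochondrial ones.

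The members went further than the 96 Camk1d-high cells above 0.5% mitochondrial counts in the leading transcripts. Gphn was at 1689 CPM in the members and 632 CPM in the 96, Jarid2 at 2589 and 759 CPM, Tmtc2 at 1566 and 478 CPM and Gm42418 at 152502 and 86698 CPM. Cmss1 was closer, at 7596 and 5650 CPM. Camk1d itself was at 3016 and 2127 CPM. At least 4 of the 7 transcripts were high in 31 of the 96 cells (32.3%), against 79.4% of members. Against the 96, 407 genes (5.7%) were higher in the members and 1315 (18.4%) lower. Gm26917, a noncoding transcript also tied to ribosomal RNA, went the other way. It was at 29.7 CPM in the members, 43.5 CPM in Camk1d-low cells and 204 CPM in the 96 cells. The 96 cells had a median of 25161 counts and a median of 8.90% in Gm42418 and AY036118.

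Against Camk1d-low cells of the same mitochondrial class the result was much as before. With the 1486 cells of at most 0.5% as the comparison, 256 genes (3.71%) were higher and 740 (10.7%) lower, of which 200 and 664 were among the 278 and 868. Log2 ratios were 2.53 for Gphn, 2.43 for Jarid2, 2.47 for Tmtc2 and 1.70 for Gm42418.

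Leaving Gm42418 and AY036118 out of every total shifted all ratios upward, because these genes took a larger share of the members' counts. The median over the same 6912 genes moved from -0.09 to 0.08. With both left out, 717 genes (9.91% of 7232) were higher and 446 (6.17%) lower, so that higher genes made up 61.7% of those past 1.5-fold rather than 24.3%. All 278 genes higher before were still higher, and 438 of the 868 were still lower. Gphn was then at a log2 ratio of 2.79, Jarid2 at 2.74, Tmtc2 at 2.79, Lars2 at 1.93 and Camk1d at 3.61. A count of higher or lower genes is therefore tied to the totals used, while the leading transcripts were not. The rule itself, applied to totals without both genes, found 379 cells in place of 359.

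At equal depth, with Camk1d-low cells weighted to the members by decile of counts, Gphn had a log2 ratio of 2.90, Jarid2 2.89, Tmtc2 2.90 and Gm42418 1.82. In that comparison 701 genes (10.4%) were higher and 815 (12%) lower.

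At equal Gm42418 share the differences in the leading transcripts were smaller and did not vanish. This comparison was chosen after the data had been seen, and used 143 members and 950 Camk1d-low cells with 6 to 14% of counts in Gm42418, weighted within bins of 2 percentage points. The members then had Gphn at 1022 CPM and the Camk1d-low cells at 389 CPM, a log2 ratio of 1.39. Jarid2 was at 1846 and 742 CPM (1.31) and Tmtc2 at 1123 and 465 CPM (1.27). Cmss1 dropped to 0.41, and AY036118 to -0.14. In all 797 genes (11.6%) were higher and 352 (5.13%) lower, with 196 of the 278 and 221 of the 868 among them. The uppermost bin, 12 to 14%, held 24 Camk1d-low cells.

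**Figure D3:**
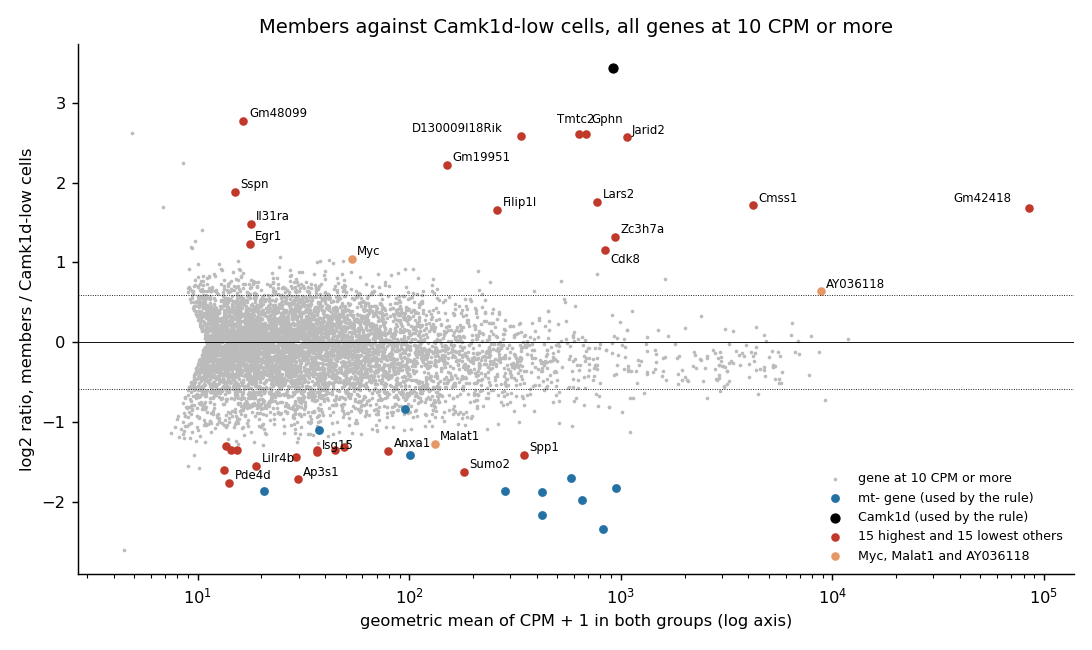
Log2 ratio of CPM (pseudocount 1 CPM) of the members over Camk1d-low cells for the 6912 genes at 10 CPM or more, against the geometric mean of CPM + 1 (log axis). Red points are the 15 largest and 15 smallest ratios at 20 CPM or more outside Camk1d and the mt- genes, orange points are Myc, Malat1 and AY036118, and dotted lines mark 1.5-fold. Most red points above 1 stand clear of the cloud, whereas those below lie at its lower edge.

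Genes lower in the members were more numerous and closer to the bulk. Sumo2, a small protein modifier, was at 102 CPM (93.9 to 110) in the members and 316 CPM in Camk1d-low cells, a log2 ratio of -1.62. Its median per cell was 69.7 CPM in the members, and 1 of 359 lay above the 95th percentile of Camk1d-low cells. Among genes at 20 CPM or more outside the mt- genes, the lowest ratio was that of Pde4d, a phosphodiesterase that breaks down cyclic AMP. Pde4d was at 6.65 and 25 CPM, on 41 counts in the members. Ap3s1, a subunit of the adaptor that sorts cargo to lysosomes, was at 15.4 and 53 CPM. Proteins of ubiquitin handling were among the 15 lowest, namely Ube2e1 (26.8 and 69.8 CPM) and Uchl3 (30.3 and 76.8 CPM). So were the vesicle transport genes Sar1b (22.1 and 57.7 CPM) and Bet1 (8.60 and 23.5 CPM), and Ccnh, the cyclin of the CDK-activating kinase (16.7 and 47.2 CPM). The macrophage genes in that group were Spp1, which encodes osteopontin (212 and 564 CPM), the inhibitory receptor gene Lilr4b (10.1 and 31.4 CPM) and Anxa1 (48.7 and 126 CPM). Isg15, a ubiquitin-like protein induced by interferon, was at 21.6 and 57.8 CPM. Tex30 (6.65 and 22.2 CPM), Rbm7 (7.95 and 21.9 CPM) and Npl (7.63 and 20.2 CPM) completed the 15. Pde4d, Ap3s1, Bet1, Ccnh, Lilr4b, Tex30, Rbm7 and Npl reached 20 CPM only in Camk1d-low cells, so that limit itself favoured lower ratios for them.

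Sumo2 was lower in other Camk1d-high cells too, though less so. In the 96 with more mitochondrial counts its median per cell was 193 CPM, against 304 CPM in Camk1d-low cells above 0.5%, with summed levels of 267 and 324 CPM. It was at 299 CPM in Camk1d-low cells of at most 0.5% and at 201 CPM between the Camk1d limits. Spp1 differed with the mitochondrial share, at 869 CPM in the 96 cells, 636 CPM in Camk1d-low cells above 0.5% and 411 CPM in those at or below it.

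Of 13 nuclear long noncoding RNAs with a row 4 were tested, and all 4 were past 1.5-fold lower, where 12.6% of all genes were. Neat1, Kcnq1ot1 and Pvt1 reached 10 CPM only in Camk1d-low cells, so that limit itself favoured lower ratios for them. The median log2 ratio was -1.42 for the 4 and -0.63 for the 13, beside -0.09 for all genes tested. At equal depth Malat1 (-0.56) and Pvt1 (-0.39) fell short of 1.5-fold. Malat1, an abundant RNA of nuclear speckles, was at 84.1 CPM in the members, 204 CPM in Camk1d-low cells and 302 CPM in the 96. It was very uneven, and its median per cell was 0 in the members and in Camk1d-low cells alike. In 74.9% of members it had no count, and the highest member reached 9834 CPM. With cells thinned to 5000 counts it was counted in 12.3% of members (9.05 to 16.1%) and 15.9% of Camk1d-low cells (14.8 to 17.0%). Neat1, the scaffold of paraspeckles, was at 4.87 and 16.4 CPM, Kcnq1ot1 at 0.811 and 10.01 CPM and Pvt1 at 5.36 and 12.9 CPM. At equal Gm42418 share Malat1 stayed lower (-1.62), while Neat1 (0.07) and Pvt1 (0.35) did not.

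Most genes of the pathway around Camk1d differed by less than 1.5-fold, as did most of all genes tested, 4.02% being higher and 12.6% lower. Of 34 genes listed for calcium/calmodulin kinases and their targets, 31 had a row and 20 were tested, with 2 higher (1 of them Camk1d itself) and 2 lower and a median log2 ratio of 0.04, or 0.31 at equal depth. Of the calmodulin genes, Calm2 was at 158 CPM (148 to 169) in the members and 337 CPM in Camk1d-low cells, and Calm3 at 132 and 159 CPM. With Gm42418 and AY036118 out of the totals Calm2 came to a log2 ratio of -0.91. The upstream kinase gene Camkk2 was at 56.5 CPM in the members and 49.8 CPM in Camk1d-low cells, and the related kinase gene Camk1 at 128 and 139 CPM. Among targets, the class IIa deacetylase gene Hdac5 was higher, at 34.4 CPM (29.9 to 39.4) and 19.9 CPM, whereas Hdac4 was at 18 and 13.8 CPM. Creb1 (17.4 and 15.8 CPM), Mef2a (31.2 and 32.0 CPM), Mef2c (136 and 122 CPM) and Mef2d (29.0 and 28.7 CPM) differed by less than 1.5-fold. The CaMKII genes Camk2d and Camk2g were below 10 CPM in both groups, and Pnck, Camk2b and Camk2n1 had no count in the members, which allows up to 0.599 CPM each.

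The low mitochondrial share was not matched by a like difference in nuclear genes of mitochondria. All 11 mt- genes tested were past 1.5-fold lower, as the rule demands, with mt-Co1 at 365 CPM in the members and 1857 CPM in Camk1d-low cells. Against Camk1d-low cells of the same mitochondrial class the mt- genes had a median log2 ratio of -0.42, with mt-Co1 at -0.73. The median mitochondrial share was 0.191% in the members and 0.310% in that class. The mt- genes chose the cells, so these values are a description too. Of 36 nuclear genes of the respiratory chain, 4 were lower and none higher, with a median of -0.22. The counts of nuclear genes here stand beside 12.6% lower and 4.02% higher over all genes tested. Uqcrb of complex III was the farthest, at 184 and 374 CPM, and Sdhd of complex II was at 101 and 167 CPM. Of 24 genes of mitochondrial ribosomal proteins 5 were lower (median -0.34), among them Mrps33 at 71.1 and 133 CPM. At equal depth the medians of both lists were -0.36 and -0.53, beside 0.02 for all genes. Against Camk1d-low cells of the same mitochondrial class they were -0.29 and -0.42, beside -0.07. Tfam, which packages and transcribes mitochondrial DNA, was at 24.7 and 34.3 CPM, a difference of less than 1.5-fold, and Slirp, which stabilises mitochondrial messengers, at 166 and 261 CPM. Of 19 tested genes of import, dynamics and mitophagy 3 were lower, with the import receptor gene Tomm20 at 232 and 465 CPM, Timm23 at 103 and 197 CPM and the channel gene Vdac2 at 220 and 352 CPM. Pink1, the kinase that marks damaged mitochondria, was at 11.4 and 8.13 CPM.

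Ribosomal protein genes were lower to a small and even degree. Of 85 tested, 3 were past 1.5-fold lower and none higher, with a median of -0.29 and 10 of 85 above 0. Over all genes tested 12.6% were lower and 4.02% higher, and these shares stand beside the next counts too. Translation factors were mixed, 2 of 18 being higher and 2 lower. The higher ones were the poly(A)-binding protein gene Pabpc1, at 1035 CPM in the members and 573 CPM in Camk1d-low cells, and the elongation factor gene Eef2, at 2127 and 1231 CPM. Eif3e (149 and 250 CPM) and Eif4e, which encodes the cap-binding protein (48.0 and 80.7 CPM), were lower. Glycolysis genes were level, with 1 of 14 lower (Pgk1, 286 and 455 CPM) and a median of 0.01.

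Macrophage genes were somewhat lower as a group, 5 of 20 being past 1.5-fold lower and 1 higher, where 12.6% and 4.02% of all genes were. The median was -0.43, beside -0.09 for all genes. The complement genes C1qb (161 and 267 CPM) and C1qc (231 and 388 CPM), the Fc receptor gene Fcgr1 (107 and 166 CPM) and the efferocytosis receptor gene Mertk (7.14 and 11.9 CPM) were lower. The lysosomal membrane gene Laptm5 was higher, at 679 CPM (659 to 700.3) and 399 CPM. Csf1r, the receptor for CSF1, was at 189 and 141 CPM, and Adgre1, which encodes F4/80, at 25.8 and 37.0 CPM. Transcription factors of macrophages were mostly level, 1 of 16 being lower (Klf2, 9.09 and 14.3 CPM), and the myeloid regulator gene Spi1 was at 204 and 223 CPM. Mertk and Klf2 reached 10 CPM only in Camk1d-low cells, so that limit itself favoured lower ratios for them.

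Secreted and inducible genes of macrophages differed from list to list. Of 9 tested chemokine and cytokine genes 6 were lower, as against 12.6% of all genes, with a median of -0.67, and none was higher. Ccl6 was at 16.9 CPM in the members and 35.9 CPM in Camk1d-low cells, Ccl2 at 25.5 and 46.9 CPM and Ccl9 at 271 and 431 CPM. Without Gm42418 and AY036118 in the totals the median was -0.49, short of 1.5-fold, under the upward shift that all genes shared. The next counts are small and stand beside the same 12.6%. Of 9 interferon-induced genes 2 were lower, namely Isg15 (above) and Oasl2 (6.0 and 11.2 CPM). Oasl2 reached 10 CPM only in Camk1d-low cells, so that limit itself favoured a lower ratio for it. Of 13 lipid-associated genes 4 were lower, with the fatty acid binding protein gene Fabp5 at 406 and 842 CPM. Of 22 lysosomal genes 6 were lower, among them the cathepsin genes Ctsl (661 and 1164 CPM) and Ctsc (123 and 214 CPM) with a list median of -0.14, near that of all genes. Iron and redox genes had 3 of 15 lower, with Prdx1 at 751 and 1372 CPM and the ferritin gene Fth1 at 7201 and 11902 CPM.

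**Figure D4:**
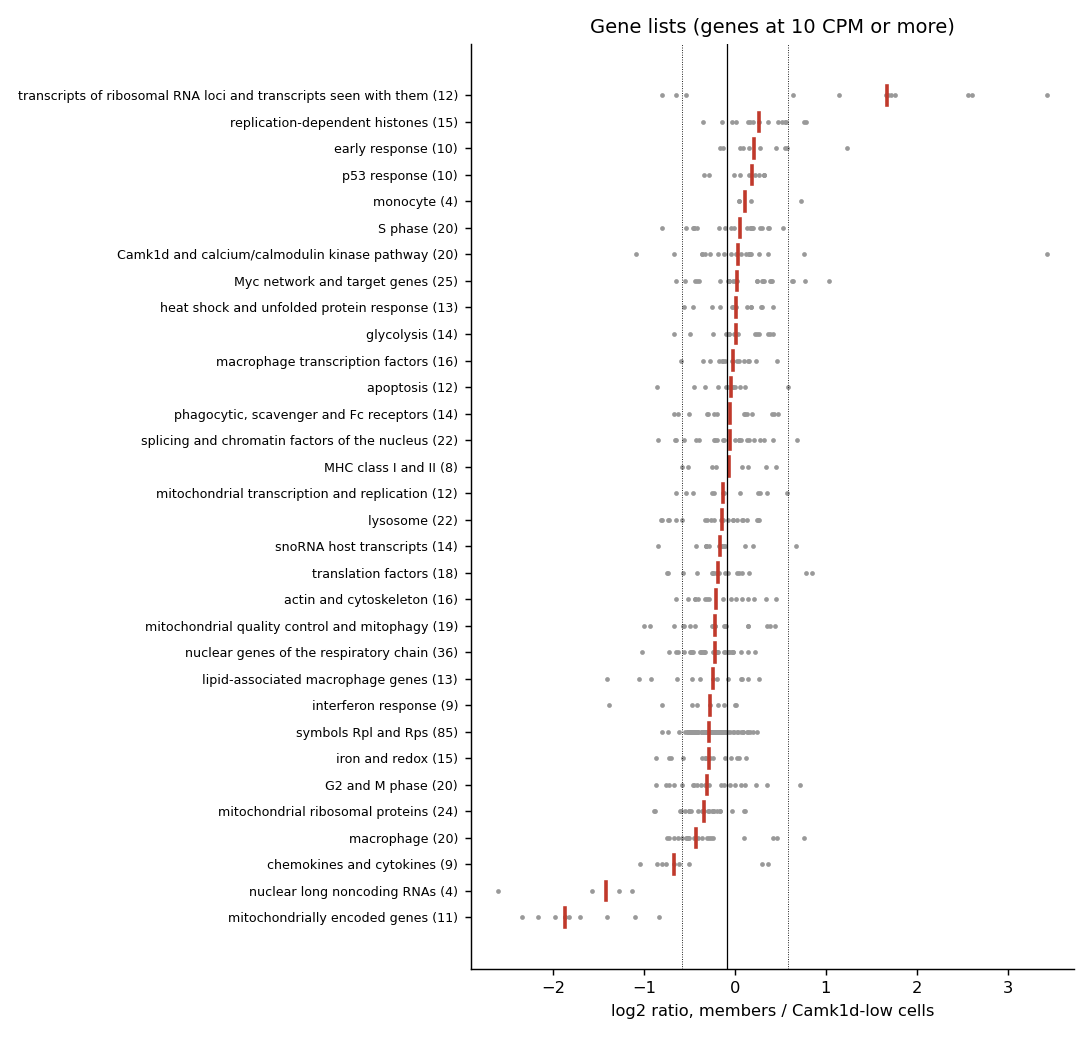
Log2 ratio of the members over Camk1d-low cells for each gene at 10 CPM or more (grey points) in gene lists, with the list's median as a red bar and the number of genes in brackets. The solid line is the median of all genes tested (-0.09), the dotted lines mark 1.5-fold, and the lists are ordered by their median. The list of transcripts of ribosomal RNA loci also holds transcripts seen with them, Camk1d of the rule included, and was chosen with these results known. It lies highest, and the mitochondrially encoded genes, used by the rule, lie lowest.

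Markers of less mature myeloid cells gave no single picture. Of 4 tested monocyte genes, Vcan was higher, at 38.5 CPM in the members and 22.8 CPM in Camk1d-low cells, while Ccr2 (22.2 and 19.6 CPM), Ly6c2 (36.5 and 35.3 CPM) and F13a1 (41.1 and 39.9 CPM) differed little. F13a1 was at log2 -1.11 at equal Gm42418 share, and Ly6c2 at -0.51 against Camk1d-low cells of the same mitochondrial class. Prtn3, a protease gene of granulocyte precursors, was at 135 and 95.7 CPM, and at log2 0.09 against Camk1d-low cells of the same mitochondrial class. Srgn, a granule proteoglycan gene, was lower at 21.4 and 48.5 CPM, and so was Pf4 at 127 and 261 CPM.

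Myc, the gene used for the reprogramming, was higher in the members. It stood at 75.6 CPM (68.9 to 82.8) in them, 36.2 CPM (35.2 to 37.3) in Camk1d-low cells, 56.2 CPM between the Camk1d limits and 52.9 CPM in the 96 cells above 0.5% mitochondrial counts. Its log2 ratio was 1.04, or 1.22 without Gm42418 and AY036118 in the totals and 0.83 at equal Gm42418 share. Per cell Myc ran from 0 to 532 CPM with a median of 52.2 CPM, and 24.0% of members lay above the 95th percentile of Camk1d-low cells. Over all 5207 cells its rho with Camk1d was 0.21, and over the bins it went from 26.8 CPM in the lowest to 90.2 CPM in the sixth and 69.1 CPM in the highest. Within the members alone rho was 0.04. Counts of the endogenous and of the introduced gene cannot be told apart.

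Most genes of the Myc network and its targets differed by less than 1.5-fold. Of 25 tested, 4 were higher and 1 lower, where 4.02% and 12.6% of all genes were. The median was 0.02, beside -0.09 for all genes, and at equal depth 0.26 beside 0.02. Besides Myc, the higher ones were its antagonist Mxd4 (63.0 and 36.4 CPM), Cad of pyrimidine synthesis (55.8 and 35.6 CPM) and the ribosome assembly gene Bop1 (82.9 and 53.4 CPM). Npm1, which encodes a nucleolar chaperone, was lower at 1030 CPM in the members and 1608 CPM in Camk1d-low cells, and Cdk4 was at 236 and 347 CPM. Of 10 tested early response genes Egr1 was higher, at 26.0 CPM (22.1 to 30.3) and 10.5 CPM, with no count in 77.7% of members. Fos was at 55.0 and 36.5 CPM and Jun at 70.3 and 47.5 CPM, both just short of 1.5-fold. Egr1 was at 9.13 CPM in the 96 Camk1d-high cells above 0.5% mitochondrial counts, below the Camk1d-low level.

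S phase genes were near the level of Camk1d-low cells, and genes of G2 and M phase were lower in the median. Each count below stands beside 12.6% lower and 4.02% higher over all genes tested. Of 20 S phase genes 1 was lower, the histone messenger binding protein gene Slbp (21.6 and 38.3 CPM), with a median of 0.06. Of 20 genes of G2 and M phase 4 were lower and 1 higher, with a median of -0.31, which was -0.04 at equal depth and 0.16 at equal Gm42418 share. Ube2c was at 107 and 196 CPM, Ccnb2 at 44.1 and 75.1 CPM, and the proliferation marker gene Mki67 at 163 and 98.8 CPM. Replication-dependent histone genes had 2 of 15 higher, Hist1h1d (51.6 and 29.5 CPM) and Hist1h4h (41.2 and 24.0 CPM). Their median of 0.27 turned to -0.06 at equal depth and -0.87 at equal Gm42418 share. Of p53 targets, 0 of 10 passed 1.5-fold in either direction, with the arrest gene Cdkn1a at 356 and 304 CPM, and of 13 heat shock and unfolded protein response genes 0 did. Among 12 genes of apoptosis, the effector gene Bak1 was higher (140 and 92.7 CPM) and the survival gene Bcl2a1b lower (42.0 and 76.6 CPM).

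Shares of cells with a count were compared after each cell had been thinned to 5000 counts, the depth every cell had. Gphn was then counted in 98.6% of members (exact interval 96.8 to 99.5%) and 69.7% of Camk1d-low cells, and Gm48099 in 21.7% and 2.33%. Myc was counted in 31.2% of members (26.4 to 36.3%) and 13.6% of Camk1d-low cells. Unthinned, the Myc shares were 57.7% and 47.5%. Sumo2 was counted in 36.5% of members and 74.3% of Camk1d-low cells (unthinned 65.5% and 94.8%), and Spp1 in 37.0% and 57.9% (unthinned 66.9% and 84.2%). Unthinned shares of Gphn were 99.7% and 94.7%, and of Gm48099 43.2% and 13.1%. No cells known to lack these genes were identified in the matrix, so shares due to free RNA could not be read off.

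The length and the base composition of transcripts, which the rule did not use, ran through the whole comparison. Genes tested were put into quintiles by their longest transcript in GENCODE M21, which gave a value for 99.5% of them. The median log2 ratio went from -0.28 in the shortest quintile (median 1256 bases) to 0.08 in the longest (6689 bases), and lower genes went from 22.2% to 4.15%. By GC content it went from -0.35 in the lowest quintile (median 41.6%) to 0.14 in the highest (57.6%). There 10.9% of genes were higher and 2.40% lower, against 0.947% and 28.4% in the lowest. By the span of the gene the medians ran from -0.17 to -0.03, and at equal depth from -0.23 to 0.20. The share of higher genes by span was 2.92% in the lowest quintile, 4.89% in the second and 3.58% in the highest. The part of length and composition in the values of single genes was not tested.

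**Figure D5:**
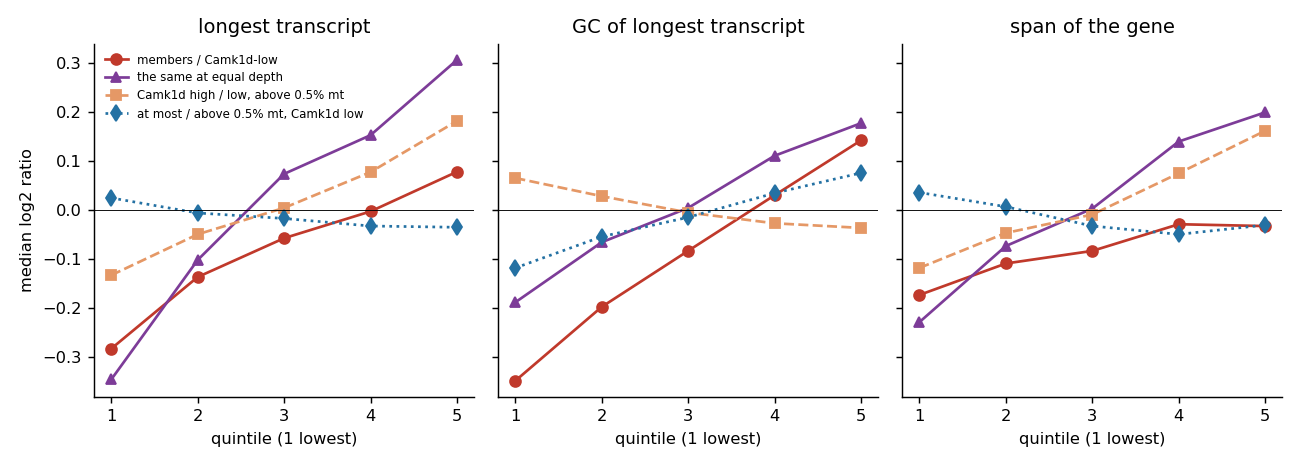
Median log2 ratio of the genes tested by quintile of transcript length, GC content of the longest transcript and span of the gene (1 lowest, 5 highest), for 4 comparisons. The members over Camk1d-low cells (red) climb in each panel, from -0.28 to 0.08 by length and from -0.35 to 0.14 by GC content. Camk1d-high over Camk1d-low cells above 0.5% mitochondrial counts (orange) climb by length, from -0.13 to 0.18, and go from 0.07 to -0.04 by GC content.

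The trend with length was shared by other Camk1d-high cells, and the trend with GC content was not. Above 0.5% mitochondrial counts, Camk1d-high over Camk1d-low cells went from -0.13 to 0.18 by length and from 0.07 to -0.04 by GC content. By the span of the gene they went from -0.12 to 0.16. Between the mitochondrial classes of Camk1d-low cells, the medians went from 0.02 to -0.04 by length and from -0.12 to 0.08 by GC content. At equal depth the members still ran from -0.35 to 0.31 by length and from -0.19 to 0.18 by GC content.

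The members lay partly together on genes that the rule did not use. Camk1d, the mt- genes and the list of transcripts of ribosomal RNA loci were left out, and the 15 nearest neighbours of each cell were found in 30 principal components. On average 34.5% of a member's neighbours were members, which made up 6.89% of all cells. In 111 members most of the neighbours were members, and 55 had none. The 96 Camk1d-high cells above 0.5% mitochondrial counts had 5.21% members among their neighbours, and Camk1d-low cells of at most 0.5% had 1.53%. With the 15 genes of largest ratio left out as well, the value for the members was 23.2%, with members prevailing around 39 and absent around 64.

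At the Camk1d limit the values ran on without a step. The 30 members just inside the Camk1d limit (1200 to 1300 CPM) had Gphn at 791 CPM and Gm42418 at 103437 CPM. The 42 cells just outside it (1100 to 1200 CPM) had 755 and 103832 CPM, so neither gene distinguished them. At the mitochondrial limit the values were farther apart. The 34 members of 0.4 to 0.5% had Gphn at 1664 CPM and Gm42418 at 145153 CPM, and the 18 cells of 0.5 to 0.6% had 805 and 96672 CPM.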

How the data were processed

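The deposited matrix holds whole-number counts per gene and barcode, not normalized, written by PISA 0.12 per the file headers. Per the submitters' processing notes, Cell Ranger and mm10 were involved, in roles not given there. No source used here states the aligner, annotation, strand setting, cell calling or whether molecular identifiers were counted. If reads were counted, the intervals are too narrow. The matrix has 6837 barcodes, 20034 genes and 160606727 counts, with 1001 to 192369 counts per barcode (median 16743).

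Counts were summed over the cells of a group and divided by the group's total to give CPM. Log2 ratios used a pseudocount of 1 CPM. Levels have exact Poisson intervals and shares exact Clopper-Pearson intervals at 95%. Doublets were not called and stay in. Neighbours used the 2000 most variable genes. Kinase genes of the prefix Rps6k and Rps19bp1 were left out of the Rpl and Rps symbols. A planned match of Gm42418 and AY036118 to gene sequences was run against the 92 transcripts of 16 genes only (blastn, E-value 1e-05) and gave 0 matches, and introns were not analysed here. In simulated data, 200 of 200 genes changed by well over 1.5-fold, and 0 unchanged ones, passed 1.5-fold. Both simulated pools came from the same gene profile without variation between cells or a shift in ribosomal RNA share. The simulation therefore checks the computation only and says nothing about the genes counted as higher or lower above.

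The cells, the gene lists and the comparison at equal Gm42418 share were chosen with earlier results of these data known. Genes were named by rule. These were the 15 largest and 15 smallest ratios at 20 CPM or more outside Camk1d and mt- genes, the members of the lists for ribosomal RNA loci and calcium/calmodulin kinases, and of each other list 2 to 6 members with the largest ratios. Malat1, Neat1, Myc, Ptprc, Gapdh and Actb were added by the same rule, and a few genes it covers are left out of the text. Csf1r, Adgre1, Tyrobp, Spi1, Tfam, Pink1, Cdkn1a, Klf2 and Ccl9 were named in addition, whatever their rank. Python 3.11.15, numpy 2.4.6, scipy 1.17.1, pandas 2.3.3 and scikit-learn 1.9.0 were used.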

Additional observations from a re-analysis of the deposited data

How the results depend on the processing

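No paired analysis was possible because the matrix is 1 sample without replicates, and for the same reason no replicate could be left out. The number of members stayed within 1.5 times under the 6 other limits tried, from 246 to 440. The 278 higher and 868 lower genes depended on the processing. Without Gm42418 and AY036118 in the totals they were 717 and 446, and without the list of ribosomal RNA loci, mt- genes, Rpl and Rps 858 and 547. With a pseudocount of 10 CPM they were 80 and 426, at 50 CPM or more 87 and 359, with all genes 481 and 1517, at 2-fold 30 and 134, and at like Gm42418 share, a comparison added after seeing the data, 797 and 352. Higher genes alone moved with cells weighted by decile of counts (701) and with the mean of CPM per cell (511).

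The list of ribosomal RNA loci also holds transcripts seen with them, Camk1d included. Its median of 1.67 was 0.35 at like Gm42418 share. In the main comparison Gm42418 was at 1.68, AY036118 at 0.64 and Gm26917 at -0.54. The chemokine median of -0.67 fell short of 1.5-fold without both genes (-0.49), without the longer list (-0.50), at a mitochondrial limit of 0.6% (-0.52), against Camk1d-low cells of at most 0.5% (-0.46) and with a pseudocount of 10 CPM (-0.42). The G2 and M phase median became 0.16 at like Gm42418 share. Under that comparison signs turned for the histone median (-0.87), Hist1h1d (-0.40), Hist1h4h (-0.97), Hist1h4c (-0.87), Hist2h2ac (-0.96), F13a1 (-1.11), AY036118 (-0.14), Neat1 (0.068), Pvt1 (0.35), Klf2 (0.089), Aurkb (0.039) and Srsf2 (0.026). Other named genes also changed sign under at least 1 of the alternatives, such as Hist1h1a (0.57, lowest -0.57) and Ccnb1 (-0.58, highest 0.28). The cause was not tested. Gphn, Jarid2, Tmtc2, Lars2, Myc and Egr1 stayed higher and Sumo2, Spp1 and Isg15 lower by over 1.5-fold under each of the 14 alternatives, with Gphn from 1.39 to 2.92, Myc from 0.83 to 1.36 and Sumo2 from -1.75 to -0.99. Depth limits the genes under 50 counts in the members, such as Pde4d (41) and Neat1 (30).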
